A study of Mus musculus with 2 samples.

Results

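Selp and Vwf are a pair of platelet adhesion genes whose products are packed into alpha-granules, the storage granules that megakaryocytes build and hand on to platelets. In a list of 1651 binding peaks of the transcription factor subunit NF-E2 p45 from mouse megakaryocytes, 3 peaks lay in the windows set around these genes, 1 at Selp and 2 at Vwf. The genes were chosen by the scores of their peaks in this same list, so the scores and ranks are given as descriptions and no test was made on them. Members were every peak that shared at least 1 bp with chr1:166040000-166090000 for Selp or with chr6:125490000-125650000 for Vwf, on mouse build mm9.

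The list came from chromatin immunoprecipitation and sequencing of 1 library made with an antibody against p45. The series also has 1 input library, made without antibody, which was not analysed here. Both came from wild-type C57BL6 fetal liver cells, taken at embryonic day 13.5 and cultured for 3 days with 50 ng/ml thrombopoietin, the hormone that drives megakaryocyte growth. There was no replicate library, no second genotype and no second treatment, so no value carries a spread between replicates, and tag counts and depth behind each peak are unknown. The cell type is given by the labels alone, since no RNA was measured in the list. The culture started from whole fetal liver, and no source used here gives the share of megakaryocytes in it.

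NF-E2 is a dimer of p45, which is made in blood cells, and a small Maf protein. It binds an extended form of the AP-1 site, and mice without p45 are known to make very few platelets. Selp encodes P-selectin, a receptor of the alpha-granule membrane that reaches the surface of activated platelets and there binds white blood cells. Vwf encodes von Willebrand factor, the large secreted protein that tethers platelets to damaged vessel walls and carries clotting factor VIII in plasma. Endothelial cells, which line blood vessels, make both proteins as well.

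Selp carried one of the highest scoring p45 peaks of the list. The peak lay at chr1:166064947-166066375, was 1429 bp long and scored 3053.66, which was rank 3 of 1651. The score is the authors' own value for each peak, and its scale is not given in the file. It serves here for ranks and differences within this list and was not read as an amount of binding. Strong and weak mean high and low in score. Scores ran from 50.04 to 3100, with a median of 76.44 and an upper quartile of 106, so the Selp peak stood above 99.8% of the list. Both peaks ranked above it, on chromosome 11, shared the highest score of 3100, which is 46.34 more, and whether that value is a ceiling of the score is not stated in the file. The next lower peak, on chromosome X, scored 1279.27, and the step of 1774.39 between it and the Selp peak was the widest between successive scores anywhere in the list.

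A promoter sequence from RefSeq was at hand for Selp, 1 of the 2 genes, on build GRCm38.p6. It is shown because it holds a match to TGANTCA, in which N stands for any base. These are the 250 bases before the annotated start of Selp, on the plus strand at chr1:164115014-164115263 of GRCm38.p6, with the match to TGANTCA in capitals.
Selp: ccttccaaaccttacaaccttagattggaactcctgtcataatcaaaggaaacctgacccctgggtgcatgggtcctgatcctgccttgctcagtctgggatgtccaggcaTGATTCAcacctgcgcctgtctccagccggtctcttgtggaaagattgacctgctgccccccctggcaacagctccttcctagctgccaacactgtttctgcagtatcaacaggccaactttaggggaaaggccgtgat
The capitals run from 139 to 133 bases before the start and have T at the N, where the longer form GCTGAGTCA has G. TGANTCA reads the same on both strands, also covers AP-1 sites and, with any base at N, is looser than the longer form. It occurs in 2565 of 32851 mouse promoters of 300 bases in the RefSeq table (7.81%). The longer form, which holds TGANTCA with G at the N, was searched on both strands. It is not in the Selp promoter and occurs in 0.454% of all promoters, and the same form with a T before it in 0.155%. These coordinates are on another build than the peaks and cannot be set against them, so whether the Selp peak covers this promoter was not analysed. A match of letters describes the sequence and does not show that p45 sits there.

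The strong Vwf peak lay at chr6:125567781-125568380 and scored 691.32 over 600 bp, at rank 8 of the whole list. It stood above 99.5% of all peaks, 116.8 below the peak of 808.12 that preceded it and 46.71 above the peak of 644.61 that followed. A second Vwf peak lay at chr6:125522997-125523649, with a length of 653 bp and a score of 65.69. That score was below the median of the list, at rank 1093, and 33.8% of peaks scored lower. The pair of Vwf peaks therefore joined 1 of the 15 peaks with a score of at least 500 to 1 from the lower part of the list, and they differed by 625.63. The Selp peak scored 2362.34 more than the strong Vwf peak.

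**Figure D1:**
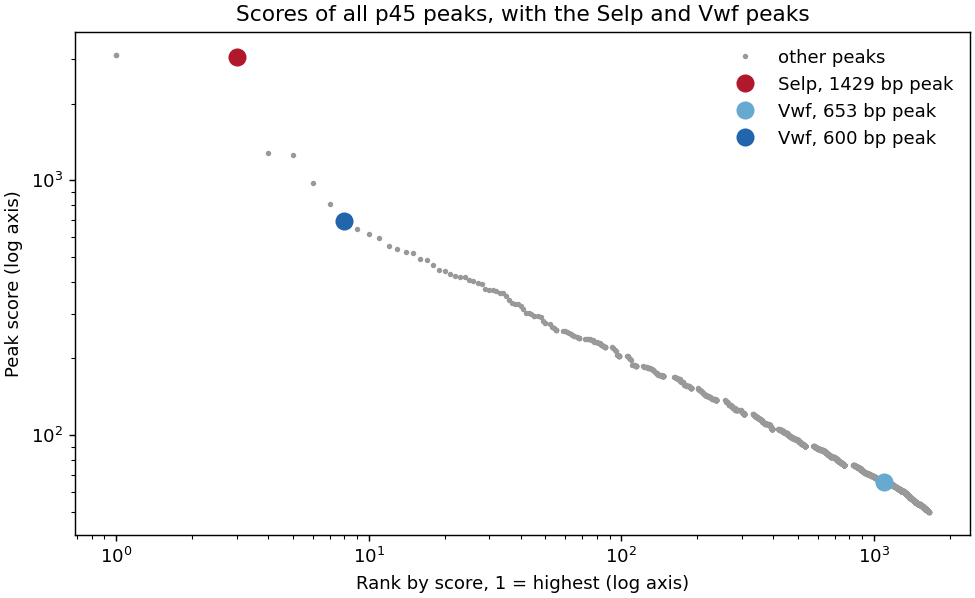
Score of each of the 1651 p45 peaks (vertical, log axis) against its rank by score (horizontal, log axis), with the Selp peak in red, the strong Vwf peak in dark blue and the weak one in light blue. The Selp peak has rank 3 with 3053.66, the strong Vwf peak rank 8 with 691.32, and the weak Vwf peak sits at rank 1093 with 65.69.

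Within its own chromosome the Selp peak had no near equal. Chromosome 1 held 100 peaks with a median score of 76.44, and the next 2 below it scored 297.65 and 239.78. Vwf was less alone at the top of its chromosome. Chromosome 6 held 93 peaks, also with a median of 76.44, and the strong Vwf peak had rank 2 among them, between the peak of 808.12 and the next lower one of 419. The weak Vwf peak had rank 56 of the 93.

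Along the window around Selp, the peak sat almost at the centre. It began 24.9 kb after the window's first base and ended 23.6 kb before its last, with its midpoint at 51.3% of the window's 50 kb. It was the only peak there and covered 2.86% of the window. In the Vwf window of 160 kb, the weak peak came first along the chromosome, 33.0 kb in, with its midpoint at 20.8% of the window. The strong peak followed 77.8 kb in, with its midpoint at 48.8%, and the last 81.6 kb of the window held no peak. Together both Vwf peaks covered 0.783% of their window. Gene models on mm9 were not used here, so the distance of each peak from a transcription start, and whether it lies in an exon or an intron, were not analysed.

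The surroundings of the genes differed. No other p45 peak lay within 1 Mb of the Selp peak. The nearest one before it, at chr1:164724616-164725165, was 1.34 Mb away and scored 76.44, and the nearest after it, at chr1:168271013-168271568, was 2.20 Mb away and scored 68.92. The Selp peak was thus the only peak in a stretch of 3.55 Mb. Over the list, the median distance to the nearest peak was 289 kb, and 209 of the 1647 peaks with a neighbour on their chromosome were farther from it than the Selp peak was. Having no other peak within 1 Mb was shared by 288 peaks (17.4%), and by 7 of the 15 peaks with a score of at least 500. In RefSeq's annotation of build GRCm38.p6, F5, the gene of clotting factor V, is a protein-coding neighbour of Selp.

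The Vwf peaks were 44.1 kb apart. Both were taken from 1 window of 160 kb, so the rule alone kept their gap below the median of the list. The median gap between adjacent peaks on a chromosome was 621 kb, and 118 of 1626 gaps (7.26%) were no wider than the one at Vwf. Among the 131 adjacent pairs at most 50 kb apart, the Vwf pair had rank 4 by its higher score and rank 3 by the difference between its scores, where the median difference was 24.94. Every pair ranked above it lay at 1 place on chromosome X and held the peak of 1279.27, the peak of 1255.61 or both. Only 5 of the 131 pairs included a peak with a score of at least 500, and in 2 of the 5, the Vwf pair and 1 on chromosome 15, the partner scored below the list's median.

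Other p45 peaks flanked the Vwf window. Before it, a peak of 581 bp at chr6:125304501-125305081 scored 52.17 and lay 218 kb from the weak Vwf peak. After it, a peak of 758 bp at chr6:125826698-125827455 scored 362.06, at rank 34 of the list and rank 4 on chromosome 6, and lay 258 kb from the strong Vwf peak. Of the 4 other peaks within 1 Mb of the strong Vwf peak, this one scored highest. At least 4 others within 1 Mb were found around 415 of the 1651 peaks, and the median was 2. Vwf has Cd9, which encodes a tetraspanin found on platelets, as its protein-coding neighbour on one side and Ano2, of the anoctamin channel family, on the other in the GRCm38.p6 annotation. Which of these genes lies nearest to the flanking peaks was not analysed on mm9.

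**Figure D2:**
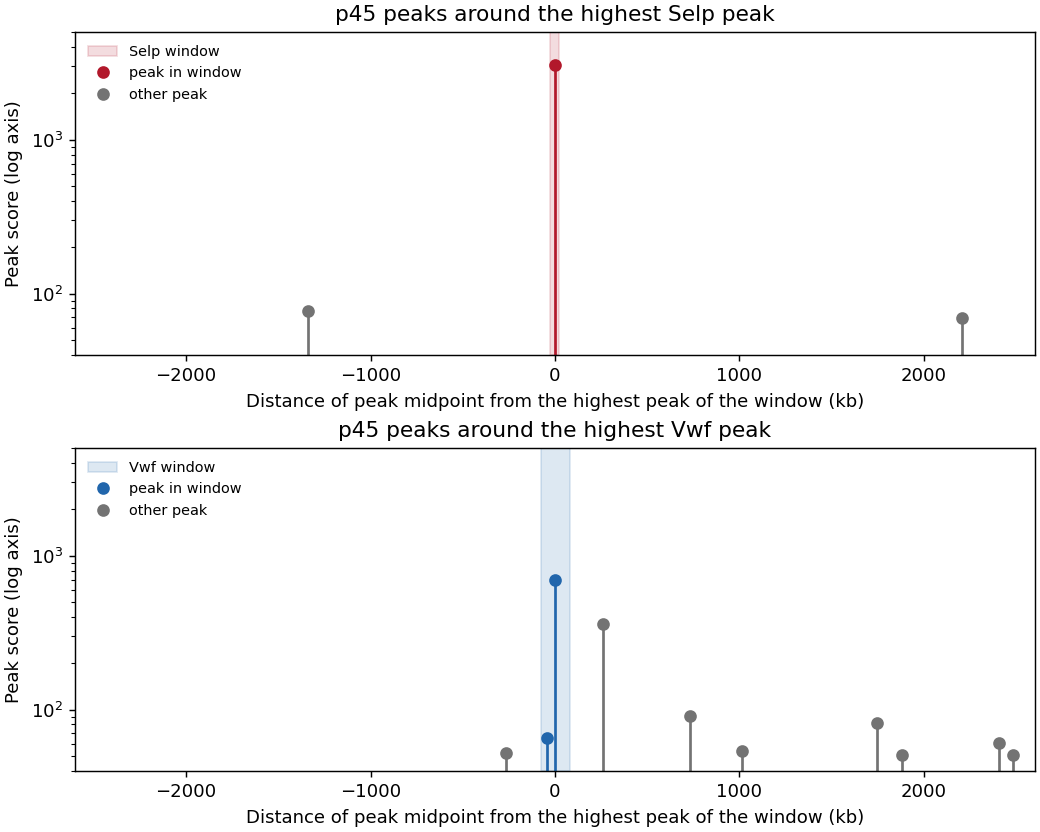
Peak score (vertical, log axis) against distance of the peak midpoint, in kb, from the highest peak of each window, for all p45 peaks within 2.5 Mb, with the Selp window shaded red and the Vwf window blue. The Selp peak stands alone for more than 1 Mb on either side, and the strong Vwf peak has a weaker peak 44.8 kb before it and one of score 362.06 at 259 kb after it.

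Selp and Vwf peaks also differed in length, by 829 bp between the Selp peak and the strong Vwf peak. The Selp peak had rank 19 by length, where the median length was 648 bp and the 90th percentile 967 bp. Peaks of nearly the same length scored far lower, 93.58 for the next longer one of 1437 bp and 102 for the next shorter one of 1394 bp. The 19 peaks at least as long as that of Selp had a median score of 93.58 and a lowest score of 50.08, and 6 of them scored below the median of the list. Only 4 of the 19, Selp included, had a score of at least 500, and no peak in that group scored above Selp.

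The Vwf peaks were of ordinary length. At 600 and 653 bp they had ranks 923 and 809, on either side of the median, and the weaker one was the longer by 53 bp. The peaks next in length to the strong one, of 601 and 599 bp, scored 57.11 and 75.7. Among the 543 peaks from 550 to 650 bp, the median score was 88.38, and the strong Vwf peak had rank 3, behind a highest score of 974.48. Lengths in this list crowd from 540 to under 590 bp, where 434 peaks had a median score of 90.96, a range set after the lengths were seen. The strong Vwf peak lay 10 bp beyond its upper limit. Among the 134 peaks from 590 to 650 bp, whose median score was 68.9, it had rank 2. With rank 8 by score in the whole list, it could not rank lower than that within any range of lengths. The weak Vwf peak had rank 117 of the 217 peaks from 603 to 703 bp, whose median score was 66.84. Within the 15 peaks with a score of at least 500, lengths ran from 574 to 1817 bp with a median of 936 bp. By length, Selp had rank 4 among these and Vwf rank 13.

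**Figure D3:**
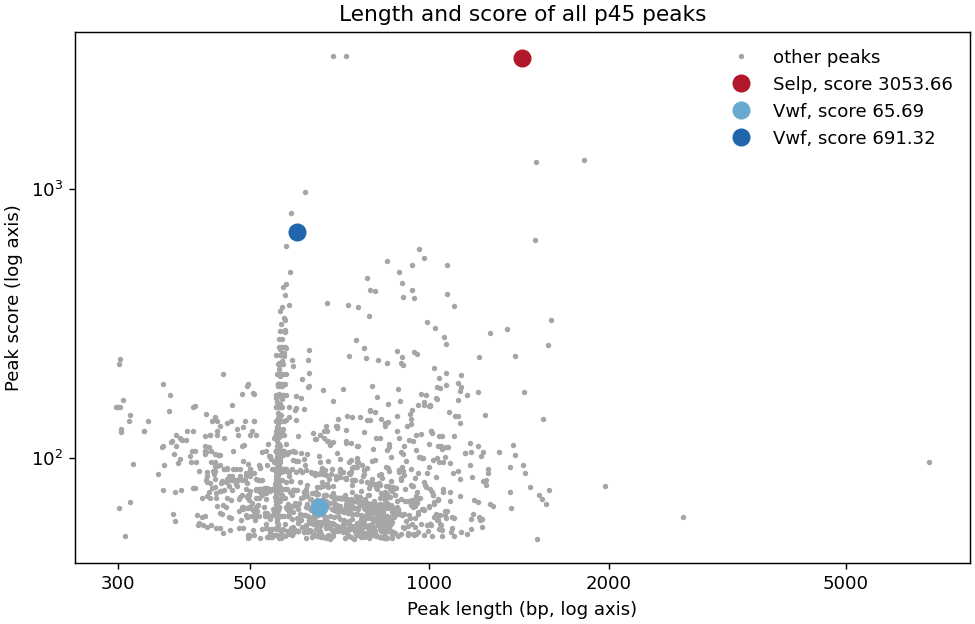
Length in bp (horizontal, log axis) against score (vertical, log axis) for the 1651 p45 peaks, with the Selp peak in red, the strong Vwf peak in dark blue and the weak one in light blue. The Selp peak, at 1429 bp, is among the longest as well as the highest, and the Vwf peaks have nearly the same length but scores of 691.32 and 65.69.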

How the data were processed

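Binding of NF-E2 p45 was measured by ChIP-seq in 1 library of mouse megakaryocytes; there is 1 input library, for which no values were analysed here. The peak score is the authors' deposited value, in a headerless list that gives position, name and score. Coordinates are on mm9 per the submitters' processing notes. The peak names carry the name of the caller MACS. No source used here names the aligner, the caller's version or settings, the control, or how duplicates were handled.

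Starts were read as zero-based and are printed 1-based. Rank 1 is the highest score or length, and tied values share the best rank. Gaps count the bases between adjacent peaks. Every peak in both windows is named, with the nearest peaks around the windows and the peaks next in score or length. Members, windows and lists were chosen with earlier results of these data known. The planned counts of peaks at other alpha-granule genes need gene positions on mm9 and were not run. Motif matches used promoters of 300 bases, 250 before and 50 after each start, and the form GCTGAGTCA was added after the data were seen. Ranking, window, gap and motif steps were tested on simulated data. Python 3.11.15, NumPy 2.4.6, pandas 2.3.3 and matplotlib 3.10.9 were used.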

Additional observations from a re-analysis of the deposited data

How the results depend on the processing

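The Selp window kept its single peak and its highest peak kept rank 3 under each of the 7 alternatives run for them. For the count of peaks this was fixed by values given above. The Selp peak scored 3053.66, lay near the centre of its window and had no other peak within 1 Mb. The Vwf window held 2 peaks also by midpoint and when widened by 50 kb on either side, and it held 1 when only peaks from the median score upward were kept and 1 with a minimum score of 100, since the weaker peak scored 65.69. The strong Vwf peak had rank 8 in the whole list and on chromosomes 1 to 19, X and Y, and moved to rank 7 with adjacent peaks at most 10 kb apart counted once, which joins a pair of stronger peaks on chromosome X, and to rank 6 by score per kb of length. No paired analysis was possible because there is 1 p45 library and no test was made. With 1 library and no tag counts, the stretches without a peak around Selp and Vwf cannot be told apart from binding below the caller's limit.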

Other observations

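The promoters of other alpha-granule and adhesion genes, not all of them platelet genes, were read for the same letters, a step added after the data were seen. Of 21 listed genes, 16 had a promoter in the GRCm38.p6 table, and 4 of the 16 held TGANTCA, beside 7.81% of all promoters. The 4 were Ppbp, which encodes the precursor of a platelet chemokine, Fgb, the fibrinogen beta chain, Gp1bb, a subunit of the platelet receptor for von Willebrand factor, and Sele, the selectin of endothelial cells and not a platelet gene. Without Sele, the only gene left out in this way, the count was 3 of 15. The other listed genes, Fgb included, were not sorted by the cells that make them. Pf4, Itga2b, Gp1ba, Gp9 and F5 were among the 12 without it, and none of the 16 held GCTGAGTCA. TGANTCA takes any base at N, so neither the count of genes nor the share of all promoters counts NF-E2 sites alone. No test was made on this count, and whether p45 peaks lie at these genes was not analysed on mm9.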
